A study of Mus musculus with 24 samples.

Results

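The nucleus accumbens of Vdr-/- mice was compared with that of wild-type (VDR+/+) mice after an injection of morphine, gene by gene, in 6 of the 24 RNA-seq libraries of the series. The 6 libraries were chosen by their genotype, injection and region labels, 3 for each genotype, and each came from its own mouse. The wild-type mice are numbered 1.0, 1.1 and 1.2 and the Vdr-/- mice 2.0, 2.1 and 2.2, and values below are always given in that order. All of them were on a C57BL/6 background and had received morphine sulfate intraperitoneally at 5 mg/kg, with tissue punched bilaterally from the accumbens 90 min later. Of 26215 genes listed for these libraries, 15638 had a mean normalized count of at least 10 and were tested, and 10577 were not tested. The Vdr-/- mice had been raised on a calcium-enriched diet, and the diet of the wild-type mice in these groups is not given in the sources used here, so genotype and diet cannot be told apart. The substrain, the age and the sex of the mice and the number of generations of backcrossing are not given there either. A pair of other comparisons of the same genotypes are set beside the results, one in the accumbens of 3 wild-type and 3 Vdr-/- mice injected with phosphate-buffered saline (PBS), and one in the ventral tegmental area (VTA) of the same 6 morphine-injected mice, as their numbers in the labels show.

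The vitamin D receptor, encoded by Vdr, is a nuclear receptor that binds DNA together with a retinoid X receptor when vitamin D hormone is present, and it is best known for its control of calcium transport in gut, kidney and bone. The nucleus accumbens is the ventral part of the striatum, where most neurons are medium spiny neurons that release GABA and receive dopamine from the VTA. Morphine acts on the mu opioid receptor and raises dopamine release there, and activity of the neurons then switches on a set of early response genes such as Fos, Arc and Npas4.

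The reads on genes ranged from 10950444 to 16649775 in the wild-type libraries and from 9328602 to 18166341 in the Vdr-/- libraries, so a gene with a normalized count of 10 rested on roughly as many reads. Vdr itself held 2, 3 and 1 reads in the wild-type mice and 5, 6 and 0 reads in the Vdr-/- mice. This is too few to check the genotype labels, which were taken as given. The medium spiny neuron genes Drd1 (2394, 1686 and 1834 in the wild-type mice and 1866, 1625 and 1708 in the Vdr-/- mice), Drd2 and Penk were abundant in every library. Transcripts of the Y-linked Ddx3y lay between 953 and 1018 and those of Xist did not exceed 2.79 in any library, so the sex of the mice did not differ between the groups. Wild-type mouse 1.0 had the highest summed level of medium spiny neuron genes and the lowest of cortical and septal genes, as given below with each list they touch. In bulk tissue, fewer cells of a type and less RNA per cell cannot be told apart.

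Between Vdr-/- and wild-type mice, 30 of 15638 genes (0.192%) passed an adjusted p of 0.05 (limma with Benjamini-Hochberg adjustment), 11 higher (0.0703%) and 19 lower (0.121%) in the Vdr-/- mice. The plot of values by mouse shows all of them. At the extremes stood Tuba1c, an alpha-tubulin gene that was close to silent in the wild-type mice, and Gm15446, a predicted gene that was close to silent in the Vdr-/- mice. Among genes of known neuronal function, Gabra2, a subunit of the GABA-A receptor, was 1.94-fold higher in the fit, and Npas4, an activity-induced transcription factor, 1.36-fold higher. The 3 libraries of one genotype lay wholly above those of the other for all 30 genes and for 13.5% of all genes tested. For the 30 this adds no support, since they were picked on the same 6 libraries. An exact permutation test gave p = 0.1 for each of the 30, the smallest value that 3 mice against 3 allow. Of all genes tested, 1209 had an unadjusted p under 0.05. The median log2 fold change was 0.00099. The size factors hold this median near 0, so it cannot show whether the groups shifted as a whole. The absolute log2 fold change was over 1 for 12 of the 30 genes and under 0.7 for 16. The count depended on single mice. Leaving out mouse 1.0 raised it to 47, and leaving out mouse 1.2, 2.0, 2.1 or 2.2 lowered it to 19, 19, 14 or 17.

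**Figure D1:**
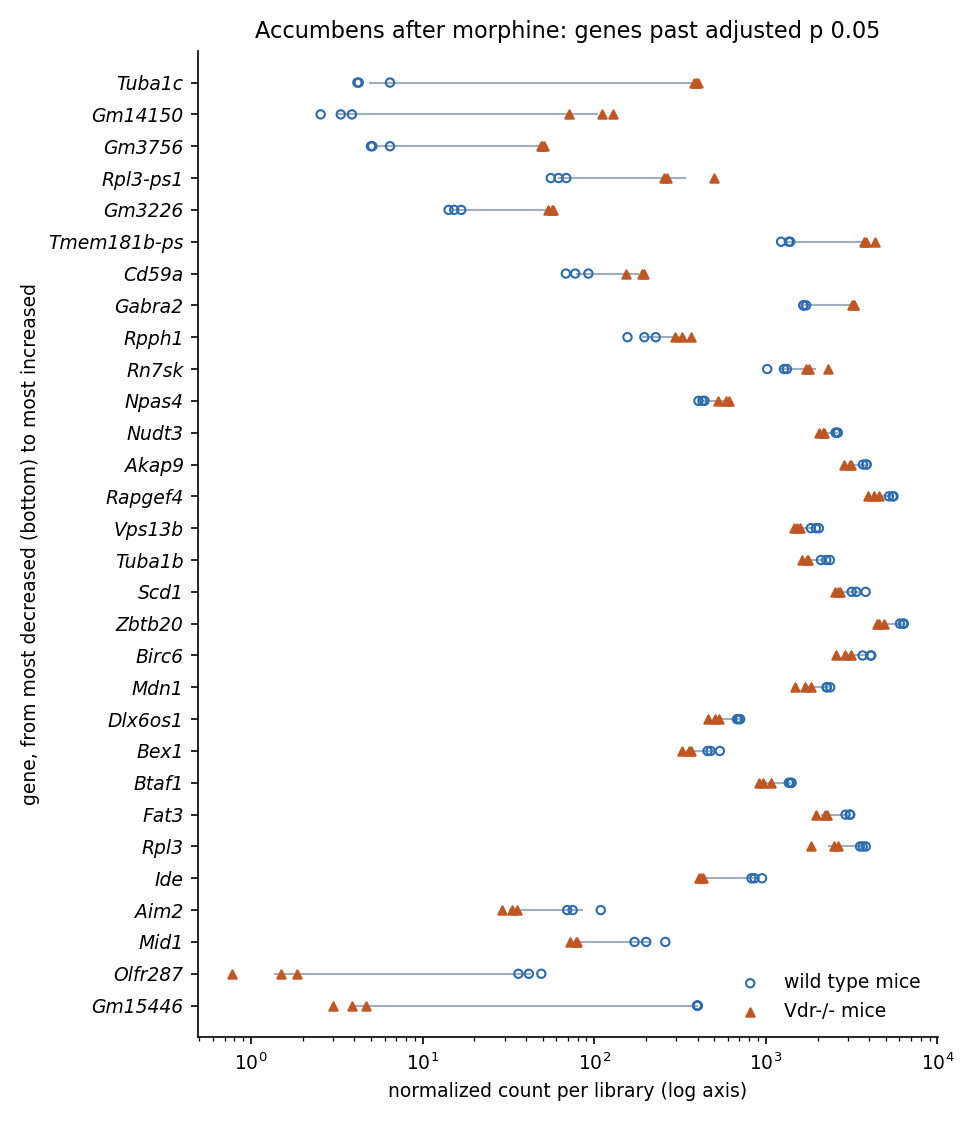
Normalized count (log axis) of each of the 30 genes past an adjusted p of 0.05 in each of the 3 wild-type mice (open circles) and the 3 Vdr-/- mice (triangles) after morphine, with a line joining the group means and genes ordered by log2 fold change. No gene has overlapping groups, and the fitted fold runs from 1.22-fold for Nudt3 to 83.5-fold for Gm15446.

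The largest decreases were in Gm15446 and Olfr287, which were at or near silence in the Vdr-/- mice, followed by Mid1 and Aim2, which were not. Gm15446 (ENSMUSG00000090015, chr5:109923400-109943936, GRCm38) had normalized counts of 401, 397 and 399 in the wild-type mice and 4.64, 3.86 and 3.00 in the Vdr-/- mice (log2 fold change −6.38 ± 0.19 SE, adjusted p = 9.52e-09). The wild-type libraries hardly varied and no Vdr-/- library exceeded 4.64. Olfr287 (ENSMUSG00000090129, which the deposited table names Olfr286), an olfactory receptor gene, fell from 49.1, 41.5 and 36.1 to 1.86, 0.772 and 1.50 (log2 fold change −4.20 ± 0.36 SE, adjusted p = 1.75e-04). Mid1, a ubiquitin ligase encoded on the X chromosome, fell from 200.6, 259 and 172 to 78.9, 78.0 and 72.1 (log2 fold change −1.43, adjusted p = 0.00104). Aim2, a sensor of DNA in the cytosol, fell from 109, 69.5 and 74.8 to 28.8, 35.5 and 33.03 (log2 fold change −1.33, adjusted p = 0.0270), and the Vdr-/- libraries were all below the lowest wild-type library. The call of Aim2 was lost in 4 of the 6 fits without 1 mouse.

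Ide, which encodes the insulin-degrading enzyme, had counts of 824, 858 and 949 in the wild-type mice and 407, 430.1 and 420.4 in the Vdr-/- mice (log2 fold change −1.06 ± 0.07 SE, adjusted p = 8.58e-06), a fitted level of 0.479 of wild type with no overlap. Btaf1, a regulator of the TATA-binding protein, lies 256 kb from Ide on chromosome 19 and also fell, from 1360.2, 1412 and 1388 to 1070, 958 and 913 (log2 fold change −0.50, adjusted p = 0.00496). Fgfbp3, which lies 6.46 kb from Btaf1, had a log2 fold change of −0.68 that did not pass (adjusted p = 0.418). In the VTA of the same mice Ide and Btaf1 were also lower (log2 fold change −0.98 ± 0.08, adjusted p = 0.00580, and −0.65 ± 0.07, adjusted p = 0.0389).

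**Figure D2:**
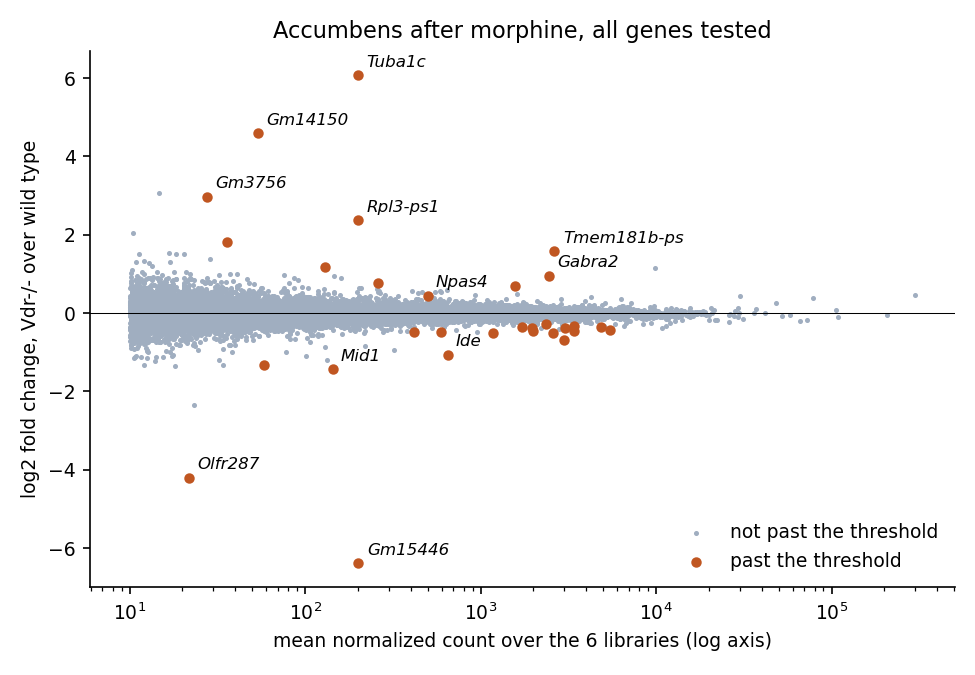
Log2 fold change of Vdr-/- over wild type (vertical axis) against the mean normalized count of the 6 libraries (log axis) for the 15638 genes tested, with the 30 genes past the threshold in orange and 11 of them named. The bulk of genes lies symmetrically about 0, while Tuba1c and Gm15446 stand furthest out at 6.07 and −6.38.

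3 of the 30 genes lie close to Vdr itself (chr15:97854425-97910630, GRCm38). Of the 578 genes tested on chromosome 15, 5 passed the threshold. Within 5 Mb of Vdr 3 of 120 genes did (2.5%), namely Olfr287 at 0.296 Mb, Tuba1b at 1.02 Mb and Tuba1c at 1.12 Mb. Of all 120 genes in this window, 12 had an unadjusted p under 0.05, where 7.73% of all genes tested did. With the 3 called genes taken out of the window only, 9 of the other 117 (7.69%) did. Among these 9, Col2a1, Rpap3, Zfp641, Adcy6 and Tuba1a lie within 1.04 Mb of Vdr, and Faim2, Pou6f1, Galnt6 and Amhr2 lie further away. The median absolute log2 fold change of the 117 genes was 0.06, against 0.08 over all genes. Of those that did not pass, Col2a1 was lowest at −1.35 (adjusted p = 0.418) and Amhr2 highest at 0.85 (adjusted p = 0.607). Rpap3, 0.149 Mb from Vdr, came closest to the threshold (313, 326 and 335 in the wild-type mice and 225, 246 and 243 in the Vdr-/- mice, log2 fold change −0.45, adjusted p = 0.0624). Rpl3 and Vps13b, the remaining chromosome 15 genes, lie 17.8 and 61.9 Mb away.

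**Figure D3:**
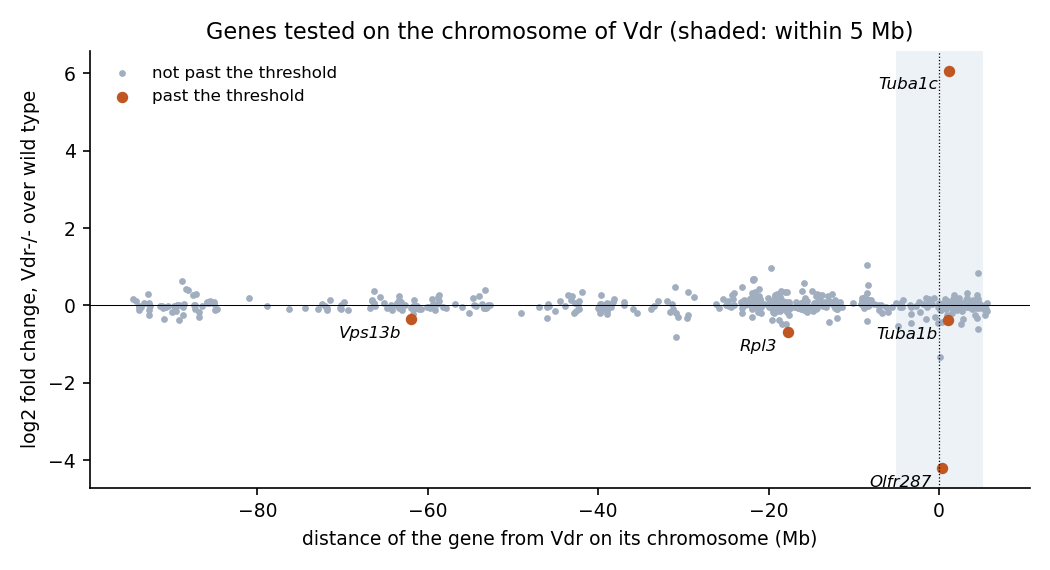
Log2 fold change of Vdr-/- over wild type after morphine against the distance from Vdr (Mb) for the 578 genes tested on chromosome 15, with genes past the threshold in orange and the 5 Mb on either side of Vdr shaded. Tuba1c, Tuba1b and Olfr287 lie within 1.12 Mb of Vdr, and most of their neighbours lie near 0.

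Tuba1c (ENSMUSG00000043091, chr15:99029891-99038110) encodes an alpha-tubulin, a building block of microtubules. Its counts were 4.16, 4.24 and 6.45 in the wild-type mice and 384, 394 and 404 in the Vdr-/- mice (log2 fold change 6.07 ± 0.19 SE, adjusted p = 9.89e-09), fitted 67.3-fold higher with no overlap. Its neighbour Tuba1b fell from 2093, 2362 and 2248 to 1617, 1771 and 1748 (log2 fold change −0.38 ± 0.06 SE, adjusted p = 0.0277), a call lost in 5 of the 6 fits that left out 1 mouse. Tuba1a, the third gene of the cluster, had 6535, 7747 and 7709 in the wild-type mice and 5736, 5762 and 5846 in the Vdr-/- mice, which did not pass (log2 fold change −0.34, adjusted p = 0.105) although its groups did not overlap.

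Processed pseudogenes with sequence close to these tubulins rose as well, although they lie on other chromosomes. Gm14150 on chromosome 2 rose from 3.33, 2.54 and 3.87 to 71.5, 129 and 111 (log2 fold change 4.60, adjusted p = 8.58e-06). Gm3756 on chromosome 9 rose from 4.99, 5.09 and 6.45 to 49.2, 49.4 and 51.0 (log2 fold change 2.97, adjusted p = 2.07e-04), and Gm3226 on chromosome 13 from 14.2, 15.3 and 16.8 to 57.6, 56.4 and 54.0 (log2 fold change 1.80, adjusted p = 0.00249). In each of them the lowest Vdr-/- library lay far above the highest wild-type library. Tuba1c, Gm14150 and Gm3756 reached the minimum mean of 10 only through the Vdr-/- libraries, with wild-type means of 4.95, 3.25 and 5.51. Gm17383, a further alpha-tubulin copy, did not follow (log2 fold change 0.04, adjusted p = 0.988).

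The copies resemble both tubulins closely. Over whole transcripts in GENCODE M21, Gm14150, Gm3756 and Gm3226 shared 76.3%, 69.5% and 78.9% of their 25-base words with Tuba1b, and 68.0%, 62.7% and 74.0% with Tuba1c. Counts of these genes are therefore uncertain, since the aligner's gene counts keep only reads that map to a single place and a few base differences decide which gene receives a read. The sum of Tuba1b, Tuba1c and the 3 copies was 2119.5, 2389 and 2282 in the wild-type mice and 2179, 2399 and 2368 in the Vdr-/- mice, and these overlapped (log2 difference 0.03, exact permutation test, p = 0.6). The sums also overlapped in the accumbens after PBS (log2 difference 0.08, exact p = 0.7). In the VTA the log2 difference was −0.15 (exact p = 0.3). With Tuba1a added, the sum was 8654, 10136 and 9991 against 7915, 8162 and 8214 in the accumbens after morphine, lower in every Vdr-/- mouse (log2 difference −0.24, exact p = 0.1). This larger sum differed by −0.31 in the VTA (exact p = 0.1) and by −0.17 after PBS (exact p = 0.2). Whether the fall of Tuba1b and the rise of the others reflect reads moved between genes was not tested on the reads.

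A ribosomal protein gene and its copy also moved apart. Rpl3, a protein of the large ribosomal subunit, fell from 3822, 3538 and 3669 to 2624, 2505 and 1821 (log2 fold change −0.68 ± 0.11 SE, adjusted p = 0.0334). Its processed pseudogene Rpl3-ps1 on the X chromosome rose from 55.8, 68.7 and 61.9 to 266, 255 and 498 (log2 fold change 2.37 ± 0.21 SE, adjusted p = 2.83e-04). Vdr-/- mouse 2.2 had both the lowest Rpl3 and the highest Rpl3-ps1 count. The call of Rpl3 was lost in 3 of the 6 fits without 1 mouse. Rpl3-ps1 shares 93.9% of its 25-base words with Rpl3, and bases 601 to 700 of the Rpl3 coding sequence (counted from the A of the start codon) occur in it without a difference, shown here as the stretch both genes hold in GENCODE M21, in lower case throughout because no base differs.
Rpl3 and Rpl3-ps1: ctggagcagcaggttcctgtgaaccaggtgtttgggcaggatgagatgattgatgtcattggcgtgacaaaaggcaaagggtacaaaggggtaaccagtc

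Summed over both genes, the counts were 3878, 3606 and 3731 in the wild-type mice and 2889.5, 2759.9 and 2319.6 in the Vdr-/- mice. The sum was lower in every Vdr-/- mouse (log2 difference −0.50, exact permutation test, p = 0.1, the smallest possible). It also differed by −0.46 in the accumbens after PBS and by −0.41 in the VTA (exact permutation test, p = 0.1 for each).

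Gabra2 (ENSMUSG00000000560, chr5:70957597-71095849) encodes the alpha 2 subunit of the GABA-A receptor, the chloride channel through which medium spiny neurons inhibit one another. Its counts were 1654, 1654 and 1716 in the wild-type mice and 3282, 3168 and 3276 in the Vdr-/- mice (log2 fold change 0.95 ± 0.05 SE, adjusted p = 7.06e-07), and the spread within each genotype was small beside the gap between them. The level of Gabra2 is known to differ between substrains of C57BL/6, and whether these mice differed in substrain was not tested. After PBS the counts were 1796, 1931 and 1751 in wild-type mice 1, 2 and 3 and 3322, 3631 and 3657 in Vdr-/- mice 7, 8 and 9 (log2 fold change 0.95 ± 0.07, adjusted p = 0.00859). In the VTA they were 1446, 1000.1 and 1255 against 2294, 3336 and 2828 (log2 fold change 1.19 ± 0.16, adjusted p = 0.115). Of 20 genes for GABA synthesis, transport and receptors, Gabra2 alone passed the threshold. Gabrb1, the lowest of them, had a log2 fold change of −0.22 (adjusted p = 0.590), and the median over the list was −0.02.

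Cd59a, which protects cells from complement, rose from 68.3, 92.4 and 77.4 to 152, 195 and 191 (log2 fold change 1.17, adjusted p = 0.00496). This call was lost in 2 of the 6 fits without 1 mouse. Tmem181b-ps, a transcribed pseudogene on chromosome 17, rose from 1384, 1227 and 1361 to 4307, 3827 and 3708 (log2 fold change 1.57 ± 0.07 SE, adjusted p = 1.88e-07), with the lowest Vdr-/- library far above the highest wild-type one. It shares 29.6% of its 25-base words with Tmem181a, which had a log2 fold change of 0.10 (adjusted p = 0.723). Dynlt1b, a dynein light chain gene that lies 2.23 kb away, had 10.8, 22.9 and 14.2 in the wild-type mice and 36.2, 44.8 and 43.5 in the Vdr-/- mice and did not pass (log2 fold change 1.38, adjusted p = 0.137).

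The lower genes included 6 with transcripts over 10000 bases: Fat3, an atypical cadherin, Mdn1, an ATPase of ribosome assembly, Birc6, a ubiquitin ligase that restrains apoptosis, Zbtb20, a zinc finger repressor, Vps13b, a lipid transfer protein, and Akap9, an anchor of protein kinase A at the centrosome. Fat3 fell from 3078, 2912 and 3100 to 2201, 2258 and 1952 (log2 fold change −0.51 ± 0.06 SE, adjusted p = 0.00401), and Zbtb20 from 6306, 6372 and 6046 to 4891, 4542 and 4429 (log2 fold change −0.43, adjusted p = 0.00482). Mdn1 fell from 2268, 2370.2 and 2256 to 1683, 1840.2 and 1477 (log2 fold change −0.47, adjusted p = 0.0270). All of these were lowest in Vdr-/- mouse 2.2. So were Birc6, which fell from 3659.5, 4072 and 4113 to 2897, 3122 and 2569 (log2 fold change −0.47, adjusted p = 0.0296), Vps13b, from 1829, 2035 and 1956 to 1586, 1516 and 1459 (log2 fold change −0.35, adjusted p = 0.0362), and Akap9, from 3868, 3849 and 3679 to 3143, 3111 and 2849.5 (log2 fold change −0.32, adjusted p = 0.0414). The calls of Vps13b and Akap9 were lost in 5 of the 6 fits without 1 mouse, those of Mdn1 and Birc6 in 4, that of Zbtb20 in 2 and that of Fat3 in none. All 6 were lost without a variance trend and in the fit over the 12 accumbens libraries. The median longest transcript of the 19 lower genes was 4608 bases, against 1355 for the 11 higher genes and 3361.5 over all genes. Length did not order the genes at large: the 919 genes with transcripts of 8000 bases or more had a median log2 fold change of −0.0048, and across 15616 genes, which are not independent, Spearman's rho with length was 0.03.

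In the PBS mice all 6 of these long transcripts were fitted higher in Vdr-/-, from 0.06 for Zbtb20 to 0.37 for Birc6, and none passed. Wild-type PBS mouse 2 stood apart there, with Fat3 at 1464 against 3546 and 3929.5 in the other wild-type PBS mice. In this library the ratio to the other 5 fell with transcript length across genes (rho −0.34) and rose with GC content (rho 0.40). Among the 6 morphine libraries the corresponding rho lay between −0.12 and 0.11 for length and between −0.11 and 0.14 for GC content. The log2 fold change after morphine itself had a rho of 0.15 with GC content across genes. The median GC content was 46.4% for the 19 lower genes, 54.1% for the 11 higher genes and 49.4% for all genes, and the part of GC content in these calls was not tested. Without that mouse all 6 were fitted lower after PBS too, from −0.35 for Zbtb20 to −0.05 for Vps13b (adjusted p = 0.0690 and 0.763), so their sign in the PBS mice rested on 1 library.

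**Figure D4:**
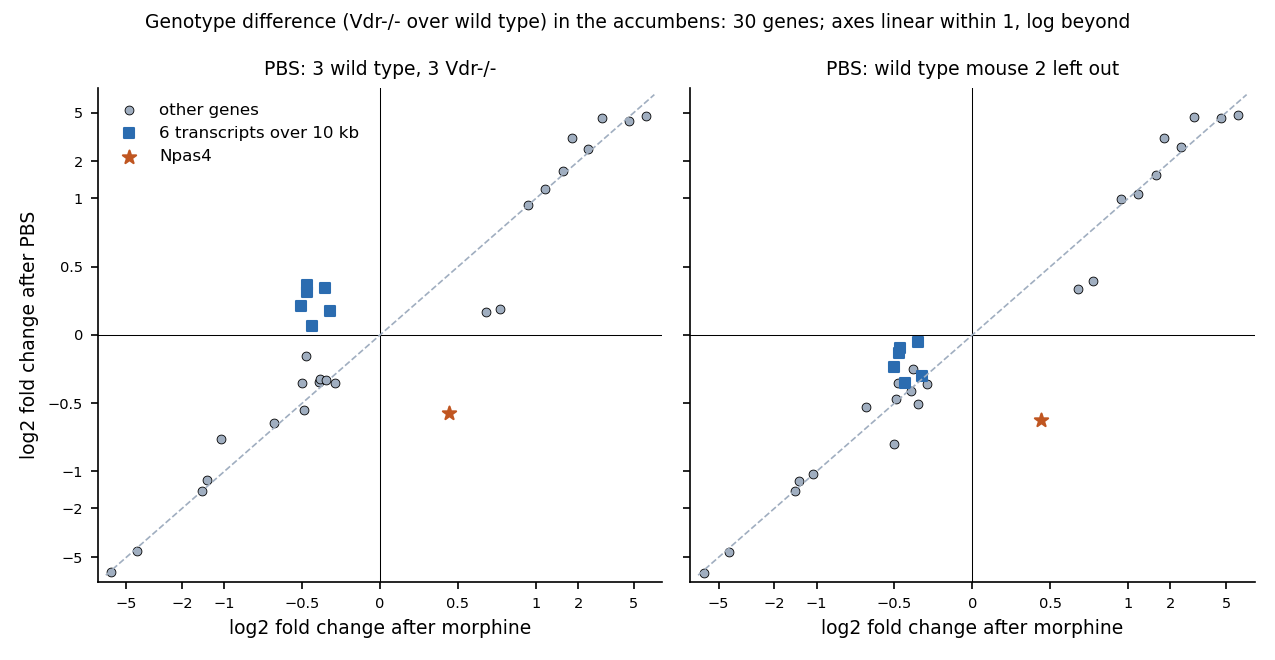
Log2 fold change of Vdr-/- over wild type in the accumbens after PBS (vertical axis) against that after morphine (horizontal axis) for the 30 genes, with all 6 PBS libraries (left) and without wild-type PBS mouse 2 (right). Axes are linear up to 1 and logarithmic beyond, and the dashed line marks equal change. The 6 transcripts over 10 kb (squares) move below 0 on the right, while Npas4 (star) lies at −0.57 and −0.62.

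The other lower genes changed by under 0.5 on the log2 scale. Bex1, an X-linked gene active in neurons, fell from 457, 539 and 476 to 324, 366 and 356 (log2 fold change −0.49, adjusted p = 0.0440). Its neighbours Bex4, Bex2 and Tceal5, at 73.5, 146 and 10.1 kb, had log2 fold changes of −0.44, −0.26 and −0.23 and did not pass (adjusted p = 0.245, 0.104 and 0.438). Dlx6os1, a noncoding RNA antisense to Dlx6, a developmental factor of GABA neurons, fell from 691, 708 and 679 to 532, 502 and 462 (log2 fold change −0.47, adjusted p = 0.0139). Scd1, which introduces the double bond of oleic acid, fell from 3813, 3367 and 3161 to 2519, 2620.2 and 2713 (log2 fold change −0.39, adjusted p = 0.0440). Rapgef4, a cAMP-activated exchange factor also called Epac2, fell from 5480.1, 5214 and 5542 to 4551, 4271 and 3941 (log2 fold change −0.35, adjusted p = 0.0440), and Nudt3, a nudix hydrolase, from 2548, 2578 and 2624 to 2173, 2031 and 2139 (log2 fold change −0.29, adjusted p = 0.0440). All 5 lost the threshold in some of the 6 fits that left out 1 mouse, Bex1 and Nudt3 in 5, Scd1 and Rapgef4 in 4 and Dlx6os1 in 3.

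A pair of short noncoding RNAs made by RNA polymerase III rose. Rn7sk, the 7SK RNA that restrains the elongation factor P-TEFb, had counts of 1325, 1276 and 1018 in the wild-type mice and 1775, 1719.7 and 2315 in the Vdr-/- mice (log2 fold change 0.68, adjusted p = 0.0440). Rpph1, the RNA component of ribonuclease P, had 228, 196 and 156 in the wild-type mice and 325, 295 and 365 in the Vdr-/- mice (log2 fold change 0.77, adjusted p = 0.0440). Vdr-/- mouse 2.2, the library with the fewest reads, was highest for both. Both calls were lost in 5 of the 6 fits that left out 1 mouse and under quantile normalization, and that of Rpph1 under TMM scaling as well. Their transcripts have 331 and 319 bases, while mRNA libraries are built to hold longer, polyadenylated transcripts. Of the 24 small nuclear, nucleolar, Cajal body, ribozyme and miscellaneous RNAs tested, 19 were fitted higher in Vdr-/- mice (median log2 fold change 0.29) and these were the 2 that passed. The 212 genes with transcripts under 500 bases had a median of 0.04. After PBS Rn7sk and Rpph1 had log2 fold changes of 0.17 ± 0.21 and 0.19 ± 0.21 (adjusted p = 0.816 and 0.780).

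Npas4 (ENSMUSG00000045903, chr19:4984355-4990316), a transcription factor that calcium entry switches on in active neurons and that shapes inhibitory synapses, had counts of 405, 426 and 439 in the wild-type mice and 587, 613 and 525 in the Vdr-/- mice (log2 fold change 0.44 ± 0.07 SE, adjusted p = 0.0440). All 3 Vdr-/- libraries lay above all 3 wild-type libraries. After PBS the counts were 450.2, 526 and 765 in the wild-type and 295, 397 and 473 in the Vdr-/- mice (log2 fold change −0.57 ± 0.23, adjusted p = 0.543), and these overlapped. The difference between the genotype effects after morphine and after PBS was 1.01 on the log2 scale, which did not pass (unadjusted p = 0.00229, adjusted p = 0.828). In the VTA of the morphine mice Npas4 had 177, 156 and 175 against 210.4, 188 and 186 (log2 fold change 0.20 ± 0.10, adjusted p = 0.597). The call of Npas4 was lost in 5 of the 6 fits without 1 mouse.

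Npas4 was the 1 gene to pass of 42 activity-regulated genes, but most of the list was fitted in the same direction. After morphine, 35 of the 42 were fitted higher in Vdr-/- mice (50.4% of all genes were), with a median log2 fold change of 0.18, while that over all genes was near 0. The groups did not overlap for 11 of them, all higher, and 15 had an unadjusted p under 0.05, where 13.5% and 7.73% of all genes did. Arc, which moves AMPA receptors from synapses, had 1312, 1306 and 1379 against 2279, 1751 and 1621 (log2 fold change 0.48, adjusted p = 0.143). Ptgs2, the inducible cyclooxygenase and the highest of the list, had 86.6, 114 and 141 against 222, 229 and 173 (log2 fold change 0.88, adjusted p = 0.0987). Inhba, Nptx2 and Bdnf had log2 fold changes of 0.52, 0.55 and 0.64 (adjusted p = 0.227, 0.341 and 0.427) with no overlap between the groups. The lowest was Atf3, at −0.84 (adjusted p = 0.648). Leaving out 1 mouse moved the list median between 0.10 (without Vdr-/- mouse 2.0) and 0.24 (without Vdr-/- mouse 2.2). Mouse 2.0 was the highest of the 3 Vdr-/- mice for Arc, Fos, Egr1, Egr2 and Nr4a1. Wild-type mouse 1.0, which had the lowest level of cortical markers, was the lowest wild-type mouse for 30 of the 42 genes, Ptgs2 and Bdnf among them, and without it the median was 0.11. The part of this mouse and of cortical tissue in the list was not tested.

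In the PBS mice, 29 of 41 of these genes were fitted lower in Vdr-/-, with a median of −0.16 (−0.32 without wild-type PBS mouse 2). The difference between the genotype effects was positive for 34 of the 42. It had an unadjusted p under 0.05 for 15 (35.7%), all positive, where 5.8% of all genes did. Genes of a list are not independent, and some other lists had high shares too. They were 9 of 23 (39.1%, 1 positive) for glucocorticoid-responsive genes and 6 of 21 (28.6%, all positive) for endoplasmic reticulum chaperones. Of the medium spiny neuron genes, 0 of 32 did. None of the 42 activity-regulated genes passed after adjustment (lowest adjusted p = 0.828). Over all genes 0 of 15786 (0.0%) passed the limma interaction test, and 916 had an unadjusted p under 0.05. DESeq2 and edgeR also called 0, with 719 and 889 at an unadjusted p under 0.05.

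Fos, whose product is part of the AP-1 factor and which the study singles out, had 252, 313 and 302 in the wild-type mice and 397, 322 and 297 in the Vdr-/- mice (log2 fold change 0.22 ± 0.12 SE, adjusted p = 0.694, exact permutation p = 0.3), with overlapping groups. The study reported higher Fos mRNA in Vdr-/- mice at earlier times after morphine, in a separate measurement. At the time sampled here it reported higher c-FOS protein and, from target genes, a predicted activation of FOS. The Fos counts here therefore do not test the earlier mRNA difference or the protein. Creb1, the gene of the cAMP response element binding protein, had a log2 fold change of 0.01 ± 0.06 (adjusted p = 0.979). Bdnf, a growth factor, had 113, 171 and 209 in the wild-type mice and 252, 287 and 212 in the Vdr-/- mice (log2 fold change 0.64 ± 0.19 SE, adjusted p = 0.427, exact permutation p = 0.1). Of 38 CREB and cAMP target genes, 24 were fitted higher, with a median of 0.07, and Npas4 was the 1 to pass. The list ran from Pde10a at −0.33 to Bdnf, and its groups did not overlap for 5 genes that were higher and 4 that were lower. Over all genes tested, in either direction, 13.5% had non-overlapping groups. Of 36 AP-1 target genes tested, 22 were fitted higher, with a median of 0.08 and none past the threshold. Leaving out 1 mouse brought the CREB median down to 0.01 (without 2.0) and the AP-1 median down to 0.02 (without 1.1). Ptgs2 was again the highest, and Plau, the urokinase gene, was lowest at −0.65 (adjusted p = 0.787).

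RefSeq promoter windows (GRCm38.p6, 250 bases before to 50 after the start) were found for 20 called genes, 24 windows in all. The cAMP response element TGACGTCA occurred in 1 of the 24, a window of Btaf1, and in 1.79% of all 32851 windows. The AP-1 motif (TGAGTCA or TGACTCA) occurred in none of the 24, against 5.2% of all windows. The vitamin D response element, searched as direct repeats of AGGTCA or AGTTCA spaced by 3 bases, occurred in none, against 0.0122%. Both strands were searched, and a missing match says only that these letters are not in the window.

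No gene of medium spiny neuron identity passed the threshold, but 28 of 32 were fitted lower in Vdr-/- mice, with a median of −0.15. The groups did not overlap for 6 of the 32, all lower, where 13.5% of all genes tested had non-overlapping groups. Pde10a, the striatal phosphodiesterase, had 14649, 11821 and 11551 against 10667, 9788 and 9667 (log2 fold change −0.33, adjusted p = 0.299). Rxrg, a retinoid X receptor of the striatum and the lowest of the list, had 868, 619.7 and 610.2 against 584, 497 and 539 (log2 fold change −0.36, adjusted p = 0.512), and Drd1 and Drd2 had log2 fold changes of −0.17 and −0.09 (adjusted p = 0.737 and 0.840). Wild-type mouse 1.0 was the highest of all 6 mice for each of these genes. Eya1, the highest of the list, had a log2 fold change of 0.38 (adjusted p = 0.590). Leaving mouse 1.0 out brought the median to −0.05, and leaving out mouse 1.1 in its place to −0.21. The summed level of the list lay between 8650.3 and 10257 CPM in wild-type and between 7837 and 8886 in Vdr-/- libraries. CPM here are counts scaled to the same total in each library. After PBS 28 of the 32 were also fitted lower (median −0.21).

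Markers of other regions and of tissue around the striatum were mostly fitted higher. Of 14 genes of cortical excitatory neurons, 11 were fitted higher (median 0.16), and of 12 genes of septum and hypothalamus 10 were (median 0.35). Without wild-type mouse 1.0 these medians were −0.01 and 0.08. The summed cortical level lay between 789 and 1218 CPM in wild-type and between 1042 and 1165 in Vdr-/- libraries, and the septal level between 334 and 447 CPM in wild-type and between 396 and 462 in Vdr-/- libraries. Slc17a7, the vesicular glutamate transporter of cortical neurons, had 4923, 6110.3 and 9056 against 7729, 8325 and 7026, and Zic1, a septal factor, 938, 1728 and 1063 against 1390.4, 1400 and 1824, both lowest in wild-type mouse 1.0. Of 14 meningeal genes 13 were fitted higher (median 0.38), of 10 choroid plexus and ependymal genes 9 (median 0.34) and of 5 blood genes 4 (median 0.48). Without mouse 1.0 the choroid plexus and blood medians fell to −0.01 and 0.10 and the meningeal one was 0.60, while without mouse 1.2 the meningeal one was 0.14. The meningeal markers summed to 199 to 307 CPM in wild-type and 261 to 327 CPM in Vdr-/- libraries, the choroid plexus and ependymal markers to 54.7 to 83.8 CPM in wild-type and 65.1 to 75.8 CPM in Vdr-/- libraries, and the blood markers to 41.1 to 79.3 CPM in wild-type and 74.4 to 86.1 CPM in Vdr-/- libraries. No marker of these lists passed. The cortical list ran from Rspo1 at −0.19 to Slc30a3 at 0.42, the septal list from Nkx2-1 at −0.06 to Zic4 at 0.63, and the meningeal list from Crabp2 at −0.26 to Ogn at 0.65. The choroid plexus list ran from Clic6 at −0.01 to Tmem212 at 1.27, and the blood list from Hba-a2 at −0.04 to Hbb-bs at 0.59. The hypothalamic peptide genes Agrp, Hcrt and Avp and the blood markers Camp and Ngp stayed below 10 in every library, Camp at 0. The part of dissection in the results was not tested.

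Oligodendrocyte genes were mostly fitted lower. Of 15, 14 were fitted lower (median −0.19), the groups did not overlap for 10 and none passed the threshold. Over all genes tested, 50.4% were fitted higher and 13.5% had non-overlapping groups. Mbp, myelin basic protein, had 23144, 26095 and 22159 against 20556, 21519 and 20873 (log2 fold change −0.18, adjusted p = 0.601), and Opalin, the lowest, had 203, 214 and 161 against 149.5, 128 and 120.1 (log2 fold change −0.53, adjusted p = 0.268), while Gjb1 was the 1 gene fitted higher, at 0.02. The list summed to 4553 to 5558 CPM in wild-type and 4277 to 4513 CPM in Vdr-/- libraries. The median stayed between −0.24 and −0.11 when 1 mouse was left out, and after PBS it was −0.34, with all 15 fitted lower. In the VTA of the morphine mice it was 0.16. Markers of oligodendrocyte precursors, astrocytes, microglia, endothelial cells with pericytes, and striatal interneurons had medians of −0.07, −0.03, 0.03, −0.05 and −0.06, with none past the threshold. Except for the precursors, these medians changed sign without 1 mouse, as that of endothelial cells did to 0.10 without mouse 1.0. Their lowest members were Enpp6 at −0.42, Aqp4 at −0.21, Tmem119 at −0.09, Flt1 at −0.12 and Pvalb at −0.38, and their highest Cspg4 at 0.09, Sox9 at 0.20, Sall1 at 0.17, Myh11 at 0.38 and Vip at 0.57.

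**Figure D5:**
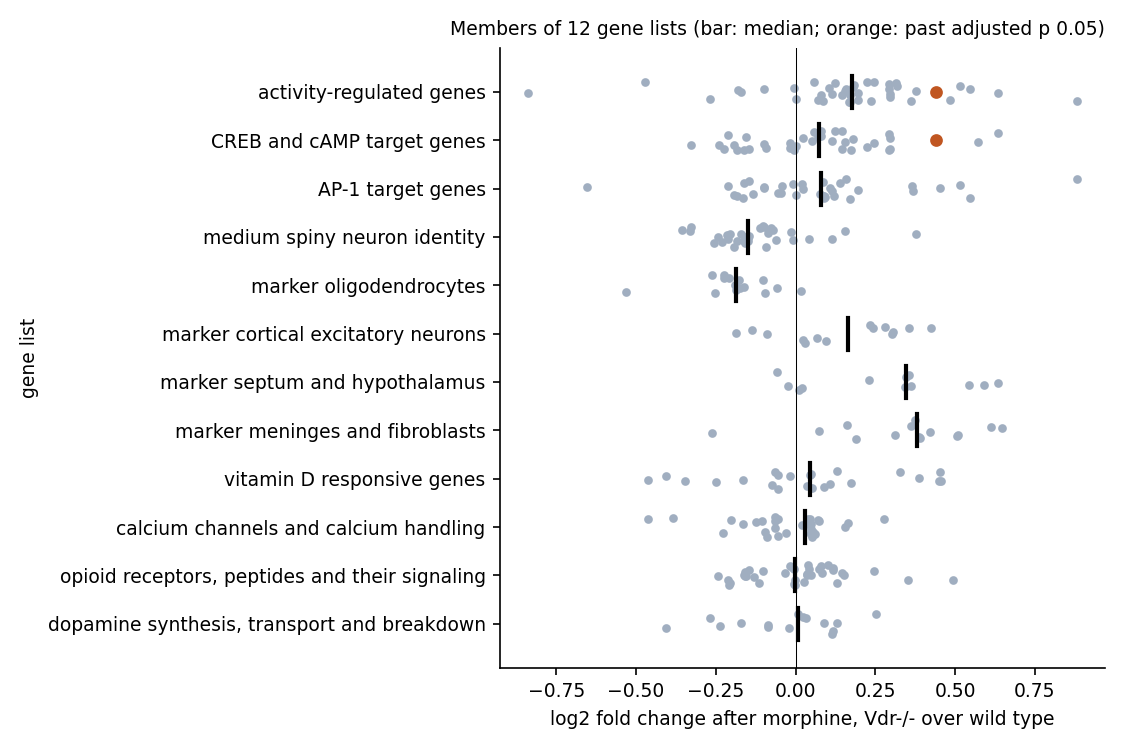
Log2 fold change of Vdr-/- over wild type after morphine for each tested member of 12 gene lists (points), with the list median as a bar and genes past an adjusted p of 0.05 in orange. The activity-regulated genes have a median of 0.18 and the medium spiny neuron genes one of −0.15, and Npas4 is the 1 orange gene, in the activity-regulated and CREB lists.

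Genes of the systems that vitamin D and morphine act on showed no called change. Of 37 genes of opioid receptors, peptides and their signaling, 18 were fitted higher (median −0.0019), from Rgs9 at −0.24 to Pnoc at 0.49 (adjusted p = 0.601 and 0.617). Oprm1, the mu opioid receptor, had 171, 217 and 228 in the wild-type mice and 154, 196 and 201.2 in the Vdr-/- mice (log2 fold change −0.16 ± 0.14 SE, adjusted p = 0.825). Of 15 genes of dopamine synthesis, transport and breakdown, 8 were fitted higher (median 0.01), and Slc18a2, the vesicular monoamine transporter, was highest at 0.25 (adjusted p = 0.903). Slc18a2 turned to −0.12 without mouse 1.0. The 17 tested partners and metabolic enzymes of the vitamin D receptor had a median of −0.01, the 23 vitamin D responsive genes 0.05, and the 32 genes of calcium channels and handling 0.03. The sign of each of these medians, and of those for opioid, dopamine and glutamate receptor genes, turned when some single mouse was left out, within the range from −0.07 to 0.06. Slc8a1, the sodium-calcium exchanger, was lowest in both of the last 2 lists at −0.46 (adjusted p = 0.494), and Ret, a receptor tyrosine kinase, highest among the responsive genes at 0.46 (adjusted p = 0.607). Cyp27a1, a vitamin D hydroxylase, was highest among the partners and enzymes at 0.20 and Rxrg lowest, and the T-type channel gene Cacna1g was highest among the calcium genes at 0.28 (adjusted p = 0.831 and 0.446). The 24 glutamate receptor genes had a median of −0.03, from Grm3 at −0.29 to Grin2d at 0.10 (adjusted p = 0.220 and 0.861).

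None of the remaining lists held a called gene apart from the tubulins. Of 23 glucocorticoid-responsive genes, 13 were fitted higher (median 0.04), whereas 20 of 23 were after PBS (median 0.33). Of 21 endoplasmic reticulum chaperone genes, 17 were fitted higher (median 0.06), whereas 17 were fitted lower after PBS (median −0.19). The medians were 0.04 for 19 circadian clock genes, −0.01 for 16 heat-shock and cold-inducible genes, −0.04 for 24 cholesterol synthesis genes, 0.07 for 18 interferon-stimulated genes and −0.03 for 46 oxidative phosphorylation subunits, of which 35 were fitted lower. The interferon median turned to −0.09 without mouse 1.1, the glucocorticoid median to −0.11 without mouse 1.0 and the chaperone median to −0.00058 without mouse 1.2. The heat-shock median turned to 0.04 without mouse 2.2. The 15 tubulin genes, with Tuba1c and Tuba1b called, had a median of 0.05 (−0.0031 without mouse 1.0). The glucocorticoid list ran from Ddit4 at −0.39 to Sult1a1 at 0.62, the chaperone list from Atf4 at −0.24 to Ddit3 at 0.25, and the clock list from Cry1 at −0.16 to Nfil3 at 0.29. The heat-shock list ran from Cirbp at −0.17 to Hspa1a at 0.14, the cholesterol list upward from Hmgcs1 at −0.17, and the oxidative phosphorylation list from Ndufb3 at −0.16 to Cox7c at 0.16. None of these 11 genes passed (lowest adjusted p = 0.220). Among the interferon-stimulated genes Rtp4 was highest at 0.69 (adjusted p = 0.650) and Ifit3 was lowest, with 58.3, 55.1 and 34.8 in the wild-type mice and 16.7, 14.7 and 25.5 in the Vdr-/- mice (log2 fold change −1.34, adjusted p = 0.143), and it passed after PBS (log2 fold change −1.33, adjusted p = 0.0356).

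In the accumbens after PBS, 11 of 15933 genes passed (0.069%), and 9 of the 30 were among them: Gm15446, Olfr287, Gabra2, Tmem181b-ps, Tuba1c, Gm14150, Gm3756, Gm3226 and Rpl3-ps1. Of the 30, 23 had the same sign after PBS, and 17 had non-overlapping groups in the same direction. Of all genes tested after PBS, 16.9% had non-overlapping groups in either direction. Without wild-type PBS mouse 2, 29 of the 30 had the same sign, Npas4 being the exception, and 12 passed. In the VTA of the same morphine mice, where 10 of 16029 genes passed (0.0624%), 27 of the 30 had the same sign and 9 passed, and 6 genes passed in all 3 comparisons. Since these are the same animals, the VTA values are not independent of those in the accumbens.

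Several of these genes stood as far apart in the other libraries. Gm15446 had 551, 437 and 539 in the wild-type and 1.86, 5.13 and 6.46 in the Vdr-/- mice after PBS (log2 fold change −6.64 ± 0.35, adjusted p = 0.00141), and 424, 421 and 429 against 3.08, 2.75 and 1.11 in the VTA (log2 fold change −7.06 ± 0.27, adjusted p = 6.17e-05). Tmem181b-ps had 1816, 1462 and 1879 against 5387, 5259 and 5605 after PBS and 939.6, 705 and 839.9 against 2361, 2709.6 and 2285 in the VTA. Neither gene had overlapping groups in any of the 3 comparisons. Ide had 971, 527 and 968 against 504, 480.1 and 417 after PBS, with wild-type mouse 2 just above the Vdr-/- mice (log2 fold change −0.76 ± 0.23, adjusted p = 0.461). Leaving out that library gave −1.06 (adjusted p = 0.00424). Mid1 had 196, 248 and 338 against 74.4, 98.5 and 111 after PBS (log2 fold change −1.44 ± 0.23, adjusted p = 0.219) and 168, 319 and 242 against 87.3, 76.9 and 89.7 in the VTA (log2 fold change −1.47 ± 0.22, adjusted p = 0.132). Rpl3 had 4661, 5806 and 4466 against 2328, 3707 and 3682 after PBS (log2 fold change −0.64 ± 0.20, adjusted p = 0.461).

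Among the 30, 4 genes had an unadjusted p under 0.05 for the difference between the genotype effects after morphine and after PBS, and none passed after adjustment. Besides Npas4 these were Tuba1c, Gm3226 and Gm3756. Tuba1c stood at 13.7, 15.7 and 14.4 in the wild-type and 422, 394 and 383 in the Vdr-/- mice after PBS, and the difference of the genotype effects was 1.42 on the log2 scale (unadjusted p = 2.49e-05, adjusted p = 0.392). For Gm3226 and Gm3756 it was −1.28 and −1.51 (adjusted p = 0.828 for both). The wild-type values of Tuba1c and Gm3756 rest on few reads in both tables.

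Beyond the 30, 271 genes had non-overlapping groups and an unadjusted p under 0.01 without passing the threshold. The lowest of them besides Col2a1 and Ifit3 were Gm10800 at −2.36 (adjusted p = 0.199), H2-M3 at −1.22 (adjusted p = 0.451) and Tmem267 at −1.21 (adjusted p = 0.104). Tmem267, a membrane protein gene, had 164, 221 and 165 in the wild-type mice and 82.7, 51.0 and 113 in the Vdr-/- mice, and was fitted lower after PBS and in the VTA as well (−1.13 and −1.22). The highest besides Dynlt1b were Mesp2 at 2.05 (adjusted p = 0.0770), Gm22613 at 1.05 (adjusted p = 0.381), Edn1 at 0.99 (adjusted p = 0.165) and A730060N03Rik at 0.98 (adjusted p = 0.104). Mesp2 had 3.33, 4.24 and 2.58 in the wild-type mice and 23.2, 13.9 and 15.0 in the Vdr-/- mice. It reached the minimum mean of 10 only through the Vdr-/- libraries, as did the called Tuba1c, Gm14150 and Gm3756. The called Gm15446 and Olfr287 reached it only through the wild-type libraries, with Vdr-/- means of 3.84 and 1.38. Edn1, the gene of the vasoconstrictor endothelin 1, had 22.5, 24.6 and 34.8 in the wild-type mice and 54.8, 54.1 and 54.0 in the Vdr-/- mice.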

How the data were processed

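The RNA-seq libraries were made with a directional kit and sequenced as paired reads. The authors trimmed reads with Trimmomatic (version 0.36), mapped them with STAR (version 2.4.2a) and counted reads per gene with STAR, and the tables they deposited hold a signal in DESeq2-normalized counts (reads divided by a size factor), 1 table for each pair of groups. Dividing by what 1 read is worth gave whole reads for 100% of values (tolerance 0.01) in each library, and these reads served for the alternatives. Genes with a mean of at least 10 entered limma 3.58.1 as log2 of the value plus 1 (eBayes with a mean-variance trend, two-sided, Benjamini-Hochberg, threshold 0.05), and fold changes are on that scale, which understates the change of low genes. The study's own test, DESeq2 1.42.0, and edgeR 4.0.16 were run on the recovered reads as alternatives, with other scalings, filters and pseudocounts and with each library left out. The interaction used the 12 accumbens libraries. Exact permutation tests were two-sided. The scripts were tested on simulated data. Replicate pairs were not duplicates (chi-square per degree of freedom 3.99 to 6.45). Where nothing says that samples are separate litters, p-values measure only the spread between these mice. Positions are from GENCODE M21 on GRCm38, which held 99.8% of the gene identifiers. The genes were all those called, the extremes of each list, 4 genes the study singles out, genes within 5 Mb of Vdr and the 5 highest and 5 lowest uncalled genes with non-overlapping groups. The members and lists were chosen with earlier results of these data known, and neighbours of called genes, sums over copies, short RNA classes and other list members named were chosen after values were seen. The ends of some lists are not reported here. R 4.3.3, Python 3.11.15, pandas 2.3.3, scipy 1.17.1 and matplotlib 3.10.9 were used.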

Additional observations from a re-analysis of the deposited data

How the results depend on the processing

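The number of genes past the threshold after morphine (30) was 51 with DESeq2, 10 without a trend in the variance, 13 in a fit over all 12 accumbens libraries and 19 with a block on the last digit of the mouse number, and it ranged from 14 to 47 when 1 library was left out. It was within 1.5 times of 30 under TMM, quantile normalization, edgeR, pseudocounts of 0.5 and 5, a minimum mean of 50 and no filter. All 30 genes were also called by DESeq2, and 8 were called under every alternative in which they were tested: Tuba1c, Gm15446, Gabra2, Tmem181b-ps, Gm14150, Gm3756, Gm3226 and Olfr287. Another 9 lost the threshold in 1 to 5 of 17 alternatives and 13 in more, Npas4 in 9. No called gene changed sign. The sources used here do not say whether same-digit mice were paired. Deviations of same-digit mice from their group means correlated at −0.02, −0.03 and −0.06, which cannot decide it with 3 mice a group. The count after PBS (11) was 63 with DESeq2 and 2 to 28 without 1 library (28 without wild-type mouse 2, and 6, 5, 2 and 4 without mice 3, 7, 8 and 9). In the VTA (10) it was 95 with DESeq2 and 5 to 49 without 1 library (49, 6, 36 and 5 without mice 1.1, 1.2, 2.0 and 2.1). The interaction count (0) was 0 to 1 (1 without morphine mouse 1.2 or PBS mouse 1). Among the named genes outside the marker lists, whose members were not followed singly, signs turned for 3 that were not called. Creb1 ranged from −0.020 to 0.058 when 1 mouse was left out (−0.016 without 2.1), Slc18a2 from −0.12 to 0.68 (−0.0012 without 2.2) and Hspa1a from −0.12 to 0.46. The causes were not tested. With 3 mice a group, small changes of genes with few reads were not detectable.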
